A study of Mus musculus with 12 samples.

Results

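Motoneurons captured by laser from mice lacking exon 5 of Gdap1 were compared with motoneurons captured in the same way from wild type mice. These are the 6 of the 12 arrays in the study that were titled motoneuron, 3 from Gdap1-/- mice and 3 from wild type mice; the other arrays hold sciatic nerve lysate. All mice were untreated and 2 months old. The wild type arrays are called wild type 1 to 3 below and the knockout arrays knockout 1 to 3. RNA of 5 mice was purified and 3 samples per tissue and genotype were kept for the amount and quality of their RNA, per the design text. The sample descriptions speak of a single mouse and the titles of biological replicates; the design text does not say how the 5 mice were divided over the groups. The labels name no cell type to which the deletion is limited.

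Spinal motoneurons are large cholinergic neurons whose axons leave the cord and end on muscle. Their long axons make them dependent on transport along microtubules, on the local supply of mitochondria and on a large output of the endoplasmic reticulum. The product of Gdap1 sits in the membrane around mitochondria and acts in their fission, and its loss in humans causes forms of Charcot-Marie-Tooth neuropathy. The comparison asks which transcripts differ in motoneurons without a functional Gdap1.

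Each probe set has 1 value per array on the log2 scale, where a difference of 1 is a factor of 2, and every difference below is knockout minus wild type. Neither of the exons that the Gdap1 probe sets target (4 and 6) is the deleted one, and these 4 probe sets therefore cannot show the deletion itself. They can still read the amount of transcript. The brightest of them read 13.30, 13.38 and 13.34 in wild type and 13.35, 13.23 and 13.36 in knockout. Another, at a lower level, read 9.09, 8.89 and 9.21 in wild type and 9.88, 9.62 and 9.80 in knockout, a difference of 0.70 (SE 0.16, adjusted p = 0.123 by limma). The groups overlapped in the first and not in the second. The remaining Gdap1 probe sets differed by 0.34 (SE 0.15) and -0.13 (SE 0.23), with groups that overlapped. With wild type 3 left out, the difference of 0.70 became 0.78 and that of 0.34 became 0.50 (adjusted p = 0.0242 and 0.0278 by limma). The brightest and the dimmest probe set then gave -0.026 and -0.11. Probe sets of Gdap1l1 differed by 0.34, without overlap, and by 0.21, with overlap.

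The labelled cell type was read from its markers. Slc18a3, the vesicular acetylcholine transporter, read 11.93 to 12.71 over the 6 arrays and Isl1, a transcription factor of motoneurons, 10.95 to 11.72. The probe set of Chat, the enzyme that makes acetylcholine, read only 4.19 to 5.30 in all 6 arrays, below the median of 6.53 over all probe sets. Other cells of the cord were also represented. Slc32a1 and Slc6a5, transporters of inhibitory interneurons, read 11.95 to 13.20 and 11.92 to 13.12, and Mbp, a myelin protein of oligodendrocytes, 14.21 to 14.55. Defining genes of skeletal muscle, red blood cells and Schwann cells were low, with Acta1 at 4.72 to 5.02, Hba-a1 at 4.12 to 4.60 and Egr2 at 3.17 to 4.05. Other genes of the Schwann cell list were not low, as Pmp22, a myelin protein, read 13.75 to 14.14 and Ncmap, an adhesion protein of myelin, 6.71 to 8.43.

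No probe set passed at an adjusted p under 0.05 between the genotypes when all 6 arrays were used, 0.0% of the 45037 tested (limma with a mean trend, smallest adjusted p = 0.079). At an unadjusted p under 0.05 there were 7665 probe sets, or 17.0%, of which 3953 (8.78%) read higher and 3712 (8.24%) lower in knockout. The values of the groups did not overlap for 10118 probe sets (22.5%), 5720 of them higher (12.7%) and 4398 lower (9.77%). Differences were more frequent among bright probe sets: in the brightest of 4 equal classes by level 17.1% were higher and 18.5% lower at an unadjusted p under 0.05, against 5.47% and 1.86% in the dimmest. When wild type 3 was left out, 4646 probe sets passed (10.3%), 2107 higher (4.68%) and 2539 lower (5.64%). That count itself depended on the fit and on a single array. With a prior variance common to all levels in place of the mean trend, 0 of the 5-array differences passed (smallest adjusted p = 0.0547, 3076 under 0.1, 9644 at an unadjusted p under 0.05), and when wild type 2 was left out as well, 0 passed (smallest adjusted p = 0.0738, 7549 at an unadjusted p under 0.05). "Passed" below refers to the 5-array fit with the trend.

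The 18S RNA control probe set moved with wild type 3, at 13.94 and 13.77 in wild type 1 and 2 but 14.64 in wild type 3, beside 14.66 to 14.67 in knockout. The actin 3′ to 5′ difference read 1.7 and 1.97 in wild type 1 and 2, 1.62 in wild type 3 and 1.53, 1.67 and 1.5 in knockout. The mean correlation of wild type 3 was 0.9867 with its own group and 0.989 with the knockout arrays. Every other array correlated better with its own group. Some further measures did not follow that split. The spiked bioB control read 10.82, 11.05 and 11.03 in wild type and 10.22 to 10.45 in knockout, with wild type 3 in its own group. Xist, an RNA of the inactive X chromosome, read 5.18 in knockout 2 and 9.37 to 10.38 in the others. The Y-linked Eif2s3y read 7.58 in knockout 2 against 3.92 to 4.16. By these transcripts knockout 2 read as male and the other arrays as female, so sex was not balanced between the genotypes. The part of these in the results was not tested.

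The 20 genes with the smallest p on the lower side had values that did not overlap between the groups, including wild type 3, and all 20 passed without it (adjusted p 0.00453 to 0.00802, limma). Dck, which phosphorylates deoxynucleosides for salvage, had the largest difference among them: it read 11.91, 12.34 and 11.82 in wild type and 10.73, 10.95 and 10.74 in knockout. That is a difference of -1.22 (SE 0.15, adjusted p = 0.0904), or a level 2.32 times as high in wild type. Its other probe sets were lower as well, by -1.94 and -0.69.

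Wdr82, a subunit of the histone H3 lysine methyltransferase complexes, read 11.59, 11.67 and 11.26 in wild type and 10.47, 10.39 and 10.44 in knockout. The difference was -1.07 (SE 0.13), with wild type 3 lowest of its group. Cers5, a ceramide synthase, read 11.13, 11.34 and 11.24 against 10.29, 10.07 and 10.37, a difference of -0.99 (SE 0.13). Here wild type 3 lay between its 2 companions. Osbpl8, a lipid transfer protein at contacts of the endoplasmic reticulum and plasma membrane, read 12.10, 12.37 and 12.06 against 11.31, 11.42 and 11.27.

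Cycs, cytochrome c, carries electrons to complex IV and starts apoptosis when released. It read 13.05, 13.36 and 13.09 in wild type and 12.44, 12.44 and 12.39 in knockout, a difference of -0.74 (SE 0.088) by this probe set; 2 brighter ones gave -0.25 and -0.17. Ywhaz, the 14-3-3 zeta adaptor of phosphorylated proteins, read 13.94, 13.80 and 13.85 against 13.32, 13.46 and 13.27, while its 7 probe sets ranged from -0.52 to 0.28. Ids, a lysosomal sulfatase, read 12.91, 12.92 and 12.90 against 12.46, 12.49 and 12.42, with little spread in either group. Eif4g2, a translation initiation factor used in cap-independent starts, read 11.83, 12.02 and 11.94 against 11.06, 11.14 and 11.01 (difference -0.86, SE 0.093), while brighter probe sets of that gene gave -0.24 and -0.057.

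Among cytoskeletal genes on that side, Pfn2, the neuronal profilin that feeds actin monomers to growing filaments, read 14.21, 14.26 and 14.16 in wild type and 13.83, 13.88 and 13.76 in knockout. Its other probe sets were lower by -0.24 and -0.11. Mapre2, which binds the growing ends of microtubules, read 13.68, 13.80 and 13.71 against 13.34, 13.27 and 13.33, though 2 other bright probe sets gave -0.21 and -0.015. Rhob, a small GTPase of endosomes and the actin cytoskeleton, read 12.69, 12.62 and 12.65 against 12.04, 11.94 and 11.92, a level 1.61 times as high in wild type. In each of these the knockout arrays lay close together and below every wild type array.

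On the higher side the 20 leading genes also did not overlap and all passed without wild type 3 (adjusted p 0.00489 to 0.0136, limma). That too largely follows from a choice made with wild type 3 included. The largest 2 differences belonged to probe sets of a middling level. Gm9947, a predicted gene, read 6.30, 5.34 and 6.65 in wild type and 8.77, 8.95 and 8.88 in knockout (difference 2.77, SE 0.33). Itga9, an integrin subunit that pairs with the beta 1 chain, read 6.55, 6.20 and 6.81 against 8.31, 9.26 and 8.94, a level 4.98 times as high in knockout, but its other probe sets gave 0.36 and -0.14.

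The remaining 18 leading genes differed by 0.27 to 0.78. Unc5a, a netrin receptor of growing axons, read 9.62, 9.66 and 9.68 in wild type and 10.39, 10.50 and 10.41 in knockout (difference 0.78, SE 0.12). Fsd1, a microtubule-associated protein of neurons, read 11.81, 11.79 and 12.08 against 12.44, 12.75 and 12.54. Ckmt1, the mitochondrial creatine kinase that passes high-energy phosphate out of mitochondria, read 12.80, 12.58 and 12.84 against 13.23, 13.21 and 13.28, while a brighter probe set gave only 0.092. For Fsd1 and Ckmt1 wild type 3 was the highest wild type array and still below every knockout array.

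Aars, the alanyl-tRNA synthetase of the cytosol, is another gene whose mutations cause Charcot-Marie-Tooth neuropathy. It read 12.81, 12.84 and 12.85 in wild type and 13.12, 13.19 and 13.19 in knockout, and its other probe set gave 0.25. Mcoln1, a calcium channel of lysosomes, read 12.61, 12.68 and 12.58 against 12.94, 13.10 and 13.06. Psmc4, an ATPase of the proteasome base, read 13.56, 13.51 and 13.57 against 13.84, 13.83 and 13.78, but a probe set as bright gave 0.016. By the probe sets given with array values, these groups too did not overlap.

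Others of the 20 act in transcription and RNA processing. Gtf2f1, a subunit of the general factor TFIIF, read 10.18, 10.10 and 10.19 in wild type and 10.86, 10.89 and 10.78 in knockout. Ddx28, a helicase of mitochondrial ribosome assembly, read 10.79, 10.64 and 10.59 against 11.29, 11.29 and 11.34, and Rpp21, a subunit of ribonuclease P, differed by 0.51 (SE 0.084). Chchd10, a protein of the mitochondrial intermembrane space linked to motoneuron disease, read 13.11, 13.05 and 13.19 against 13.59, 13.46 and 13.59 by one probe set, and differed by 0.11 by a brighter one.

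**Figure D1:**
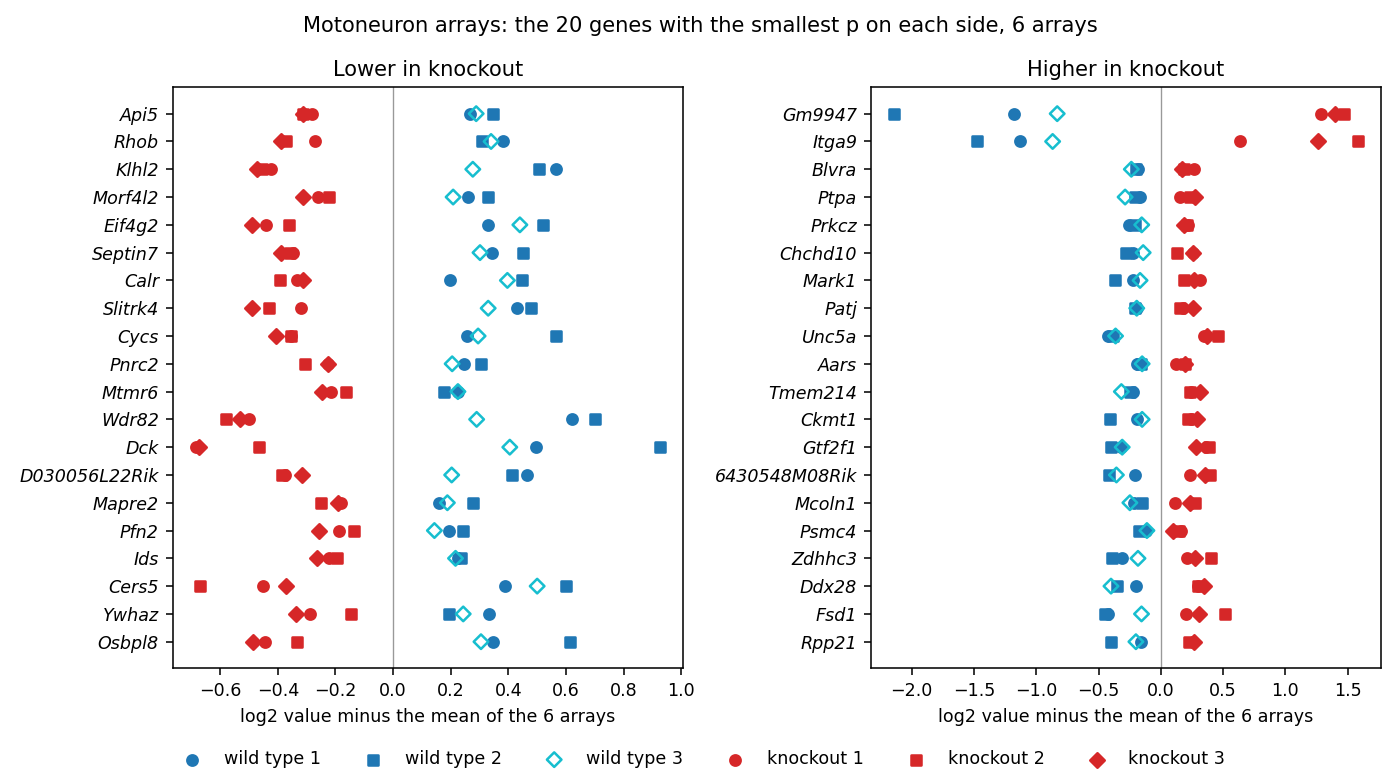
Each row is a gene and each point an array, as the log2 value minus the mean of the 6 arrays, for the 20 genes with the smallest p on each side; filled blue marks are wild type 1 and 2, the open mark is wild type 3 and red marks are knockout. In all 40 rows the knockout arrays lie on one side and the wild type arrays, with the open mark, on the other. The genes were chosen with all 6 arrays, wild type 3 included, so this largely follows from the choice.

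Among genes picked for the size of the difference, a few probe sets differed by about a factor of 3. Rb1, the retinoblastoma protein that holds back the cell cycle, read 9.36, 9.71 and 8.41 in wild type and 7.40, 7.62 and 7.52 in knockout (difference -1.65, SE 0.32). Wild type 3 lay about midway, at 0.56 of the distance from the other wild type arrays to the knockout arrays. Cav1, the coat protein of caveolae and a marker of endothelium, read 8.09, 8.48 and 8.79 against 6.61, 6.66 and 6.81 (difference -1.76, SE 0.23), with wild type 3 highest. Phf3, a PHD finger protein that binds RNA polymerase II, was on the other side at 1.63 (SE 0.39), with 5.77, 6.60 and 7.45 in wild type and 8.31, 8.11 and 8.29 in knockout, but its 9 probe sets ranged from -1.11 to 1.63.

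Functions were described from 68 gene lists with 1 probe set per gene, the brightest. Over all 18193 genes, 9.84% were higher and 10.9% lower at an unadjusted p under 0.05, with a median difference of 0.018. Differences were more frequent at high levels, so each list is best read against genes of its own level. Of 4 equal classes of genes, the brightest (means of 11.16 and above) had 17.8% higher and 20.8% lower, the next (8.60 to 11.16) 13.1% and 13.6%, and the next (5.34 to 8.60) 4.88% and 6.90%. Cell type markers aside, lists below belong to the brightest class by their median level unless another level is given. Without wild type 3, 5.5% of all genes passed as higher and 8.45% as lower, and in the brightest class 14.0% and 17.9%. No member of any list passed with 6 arrays. Most members named below were picked for a small p over these 6 arrays, so separated groups among them largely follow from the choice.

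Mitochondrial ribosomal proteins, which with mitochondrial rRNA translate the proteins encoded in mitochondrial DNA, read higher as a group. Of 76 measured, 60 had higher values, 29 of them (38.2%) at an unadjusted p under 0.05, against 1 lower (1.32%), with a median of 0.16. The exception was Mrpl44 at -0.48 (unadjusted p = 0.00349 by limma), named after its value was seen. Without wild type 3, 19 passed as higher and 6 as lower. The mean over the list was 12.19, 12.18 and 12.15 in wild type and 12.29, 12.27 and 12.31 in knockout, so wild type 3 was the lowest array and the groups did not overlap. With a prior variance common to all levels 10 were higher at that p, and over all alternatives the median stayed between 0.12 and 0.17.

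Mrpl52 read 13.69, 13.57 and 13.58 in wild type and 13.83, 13.89 and 13.90 in knockout, a difference of 0.26 (SE 0.05). Mrps18b, of the small subunit, read 12.38, 12.37 and 12.48 against 12.77, 12.68 and 12.79. Mrpl12, which also binds the mitochondrial RNA polymerase, read 13.81, 13.83 and 13.83 against 14.02, 13.99 and 14.02. In all 3 genes the knockout arrays lay above every wild type array. Their promoters are shown because these members read higher together. The RefSeq windows of build GRCm38.p6 hold 300 bases, most of them before the gene's start, and are printed 5′ to 3′ on the gene's strand. Capitals mark the ETS core CCGGAAG or the NRF1 core (GCGC, any base, TGCGC) on either strand, letters bound by factors known for their role at genes of mitochondria.
Mrpl52, chr14:54426659-54426958, plus strand: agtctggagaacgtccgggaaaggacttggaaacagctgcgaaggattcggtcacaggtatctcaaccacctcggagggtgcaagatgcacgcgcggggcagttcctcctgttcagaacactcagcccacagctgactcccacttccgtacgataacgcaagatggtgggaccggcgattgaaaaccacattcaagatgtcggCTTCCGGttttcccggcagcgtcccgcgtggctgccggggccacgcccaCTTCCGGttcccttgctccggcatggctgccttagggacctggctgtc
Mrps18b, chr17:35916391-35916690, minus strand: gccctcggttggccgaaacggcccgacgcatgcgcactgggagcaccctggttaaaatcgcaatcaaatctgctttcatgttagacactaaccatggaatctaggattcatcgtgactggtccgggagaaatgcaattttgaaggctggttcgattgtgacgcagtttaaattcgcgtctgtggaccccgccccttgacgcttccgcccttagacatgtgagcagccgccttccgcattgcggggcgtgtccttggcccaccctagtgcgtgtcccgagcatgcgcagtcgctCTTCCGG
Mrpl12, chr11:120484387-120484686, plus strand: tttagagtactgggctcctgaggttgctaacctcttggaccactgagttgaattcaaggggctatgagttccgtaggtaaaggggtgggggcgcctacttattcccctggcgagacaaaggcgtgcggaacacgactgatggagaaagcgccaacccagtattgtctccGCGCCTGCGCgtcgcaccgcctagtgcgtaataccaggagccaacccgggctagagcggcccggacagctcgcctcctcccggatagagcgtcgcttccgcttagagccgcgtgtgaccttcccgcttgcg
The ETS core was in the windows of 25 of the 67 matched list genes (37.3%) and in 9.93% of all 27025 genes with a window. It was in 14 of the 25 matched members that read higher and in 11 of 41 at an unadjusted p of 0.05 or more. The NRF1 core was in 12 of 67 (17.9%), against 5.19% of all genes. A match is a run of letters and was not tied to binding in these cells. The shares were not compared by a test, and the 27025 genes were not matched to the list in level.

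The respiratory chain did not lie on one side. Of 35 complex I subunits 8 were higher (22.9%) and 2 lower, with Ndufa7 at 12.92, 12.94 and 12.86 in wild type and 13.21, 13.14 and 13.21 in knockout; over the alternatives 2 to 12 were higher, the fewest without the variance trend. Of 46 subunits of complexes II to V, 5 were higher and 4 lower. Uqcrb, a subunit of complex III, read 14.19, 14.42 and 14.05 against 13.83, 13.71 and 13.74, whereas Uqcrq of the same complex read 13.19, 12.97 and 13.24 against 13.50, 13.47 and 13.49. Neither gene's groups overlapped, and the directions were opposite.

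Of 24 genes of mitochondrial fission and fusion, 1 was higher and 4 lower. Dnm1l, the dynamin that cuts mitochondria, had a difference of -0.31 by its brightest probe set and of 0.18 and 1.17 by 2 dimmer ones, all 3 at an unadjusted p under 0.05. Mul1, a ubiquitin ligase of the outer membrane, was the higher one at 0.31 (SE 0.10), with wild type 3 at 0.72 of the way to knockout. Of 23 import genes 4 were higher and 5 lower, among them Tomm20, a receptor of the outer membrane, with 13.47, 13.56 and 13.42 in wild type and 13.16, 13.10 and 13.06 in knockout; 2 of its other probe sets differed by -0.63 and -0.38, and 3 by -0.23 to 0.11. In the metabolism of mitochondria and cytosol, Idh1, which makes NADPH, read 13.01, 13.02 and 12.85 against 12.33, 12.51 and 12.26, and Slc25a20, the carrier that moves acylcarnitines into mitochondria, 13.02, 13.11 and 12.82 against 12.41, 12.49 and 12.56. Cat, the catalase of peroxisomes, read 12.82, 12.83 and 12.52 against 12.11, 12.30 and 12.07, and its other probe set gave -0.57. The lists of the TCA cycle (2 higher and 4 lower of 31), carriers (3 and 6 of 44, at a median level of 10.33), glycolysis (5 and 3 of 24) and redox defence (7 and 5 of 45) had members on both sides. While Idh1, Slc25a20 and Cat all read lower, the redox member with the smallest p read higher, by 0.41 (SE 0.054).

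**Figure D2:**
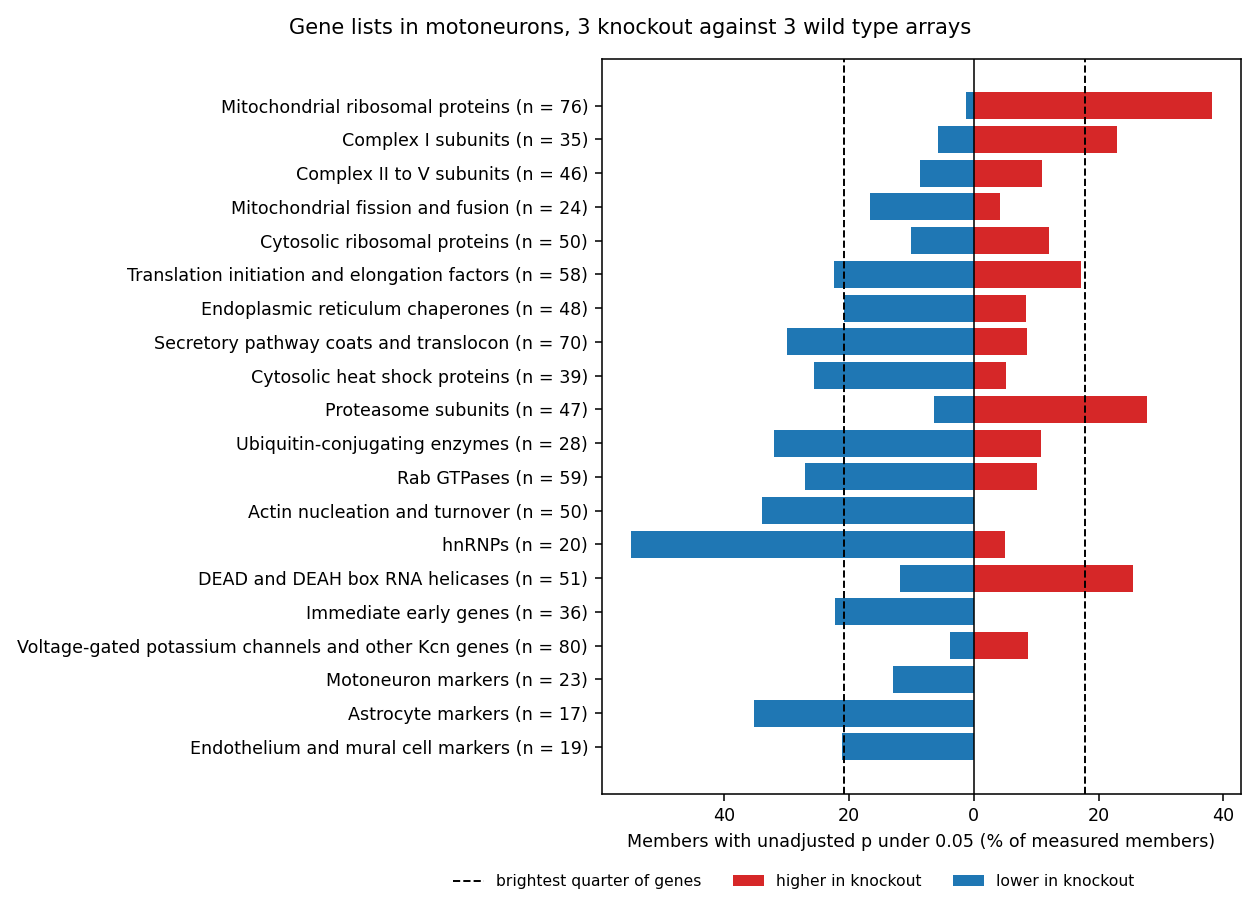
Bars give the percent of measured members of 20 gene lists with an unadjusted p under 0.05, higher in knockout to the right and lower to the left; dashed lines are the shares in the brightest of 4 classes of genes, 17.8% and 20.8%, which exceed those of dimmer classes. Mitochondrial ribosomal proteins reach 38.2% to the right and hnRNPs 55.0% to the left, while cytosolic ribosomal proteins stay inside both lines.

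In protein synthesis, cytosolic ribosomal proteins were 6 higher and 5 lower of 50, unlike the mitochondrial list in count, a difference that was not tested. Translation initiation and elongation factors were 10 higher (17.2%) and 13 lower (22.4%) of 58, near the shares of bright genes. Eif5a, a factor that relieves stalled ribosomes, read 14.48, 14.47 and 14.44 in wild type and 14.26, 14.29 and 14.30 in knockout. Probe sets of Eif3a, the scaffold of the initiation factor eIF3, disagreed, at -0.64 by the brightest and 0.82 and 0.60 by 2 others.

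The secretory pathway leaned to lower values. Of 70 genes for the translocon, signal peptidase, glycosylation and vesicle coats, 21 were lower (30.0%) and 6 higher (8.57%), and 17 passed as lower and 5 as higher without wild type 3. Stt3b, a catalytic subunit of the oligosaccharyl transferase, read 11.94, 11.85 and 11.88 in wild type and 11.33, 11.40 and 11.24 in knockout. Spcs1, of the signal peptidase, read 13.68, 13.85 and 13.63 against 13.39, 13.35 and 13.38, and Copa, of the COPI coat, 13.19, 13.33 and 13.10 against 12.93, 12.81 and 12.88. The mean over the list was 11.61, 11.64 and 11.55 against 11.52, 11.52 and 11.47. Under the fit without the trend 10 were lower at that p.

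Of 48 chaperones and quality control genes of the endoplasmic reticulum, 10 were lower (20.8%, the share of the brightest class) and 4 higher (8.33%). Calr, a calcium-binding lectin chaperone, read 13.81, 13.77 and 13.77 in wild type and 13.52, 13.44 and 13.42 in knockout by its brightest probe set, and its 3 probe sets gave -0.69, -0.33 and -0.31. Derl1, of the channel that returns misfolded proteins to the cytosol, read 12.49, 12.75 and 12.72 against 12.28, 12.19 and 12.31. Edem3, a mannosidase that marks such proteins, differed by -0.44 (SE 0.093). The groups did not overlap in these 3, though dimmer probe sets of Derl1 gave -0.054 to 0.25. Over the alternatives 6 to 13 of the list were lower. The list's median of -0.069 was -0.0017 without knockout 2.

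Cytosolic heat shock proteins were 10 lower (25.6%) and 2 higher of 39, but their median of -0.016 turned to 0.0037 after quantile normalization and to 0.032 with the mean of all probe sets of a gene. Over the alternatives 4 to 13 were lower. Hspa1b, an inducible HSP70, read 10.98, 11.51 and 11.20 in wild type and 10.56, 10.82 and 10.38 in knockout, and Bag1, a nucleotide exchange factor of HSP70, was on the other side at 0.20 (SE 0.055). In prefoldin, which hands unfolded actin and tubulin to the CCT chaperonin, Vbp1 differed by -0.53 and Pfdn6 by 0.42. Pfdn2 read 11.77, 12.01 and 10.42 against 10.28, 9.98 and 9.65, with wild type 3 near the knockout arrays.

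Protein degradation had members on both sides, by class. Of 47 proteasome subunits 13 were higher (27.7%) and 3 lower (6.38%), with means of 12.16, 12.14 and 12.20 in wild type and 12.27, 12.27 and 12.24 in knockout; without wild type 3, 5 passed as higher, a smaller share than the 14.0% of the brightest class, and 2 as lower. Psmd7, of the lid, read 10.62, 10.61 and 10.58 against 11, 11.05 and 10.94, while Psma5, of the core, went the other way with 13.57, 13.74 and 13.66 against 13.22, 13.22 and 13.14. Ubiquitin-conjugating enzymes were 9 lower (32.1%) and 3 higher of 28, among them Ube2w, which attaches ubiquitin to amino termini, at 12.41, 12.56 and 12.25 against 11.67, 11.72 and 11.56. With the Xist level as a term 5 were lower. Ubiquitin-specific proteases were 11 lower and 4 higher of 48 at a median level of 10.23, and 3 were lower with that term. Of 64 genes of autophagy and the lysosome 9 were higher and 5 lower, with Atg2a, a lipid transfer protein of growing autophagosomes, at 10.51, 10.46 and 10.48 against 10.99, 11.12 and 11.07. With centring, 9 proteasome subunits were higher, and without the trend 4 were.

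Rab GTPases, which direct vesicles between membranes, were 16 lower (27.1%) and 6 higher of 59, and 13 passed as lower and 4 as higher without wild type 3. Rab1a, which acts between the endoplasmic reticulum and Golgi, read 13.81, 13.88 and 13.79 in wild type and 13.54, 13.48 and 13.50 in knockout. Rab8b, of exit from the Golgi, read 12.04, 12.01 and 11.63 against 10.96, 10.79 and 11.22. Both were separated, with wild type 3 the lowest of its group. Without wild type 1, 7 Rab genes were lower at an unadjusted p under 0.05. Sorting nexins and VPS proteins were 13 higher and 10 lower of 62, with Vps53 at 0.28 (SE 0.055) and Vps35 at -0.61 (SE 0.14).

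Genes of actin nucleation and turnover lay on the lower side: 17 of 50 were lower (34.0%) and 0 higher, with 36 lower values in all and a median of -0.18. Wasf1, which activates the Arp2/3 complex downstream of Rac, read 13.19, 13.24 and 13.20 in wild type and 12.92, 12.87 and 12.80 in knockout. Capza2, a capper of filament ends, read 12.96, 13.04 and 12.84 against 12.64, 12.62 and 12.54. Pfn1, the ubiquitous profilin, read 10.87, 11.46 and 10.08 against 9.39, 9.50 and 8.94 (difference -1.53, SE 0.33). Wild type 3 was the lowest wild type array in the last 2 of these and lay between its companions for Wasf1. Over the list the mean was 11.55, 11.61 and 11.47 against 11.34, 11.40 and 11.37, and 17 passed as lower and 1 as higher without wild type 3. The number lower was 10 without the trend and 24 with array weights. Over the alternatives the median lay between -0.22 and -0.1, the latter with the mean of all probe sets of a gene.

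Microtubule genes were on both sides. Microtubule-associated proteins were 7 higher and 6 lower of 40, kinesins and adaptors 7 and 3 of 50 (median level 8.99), tubulins 2 and 4 of 16, and dynein and dynactin 0 and 4 of 26. Tubg1, gamma tubulin of the nucleating centre, read 11.44, 11.31 and 11.51 in wild type and 11.86, 11.87 and 11.89 in knockout, and Tubb2b, a beta tubulin of neurons, 12.20, 12.24 and 11.89 against 11.53, 11.73 and 11.54. Pafah1b1, the LIS1 regulator of dynein, read 14.04, 14.08 and 14.04 against 13.83, 13.88 and 13.89. Neurofilaments and other intermediate filaments were 2 higher and 0 lower of 16 (median level 10.42).

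**Figure D3:**
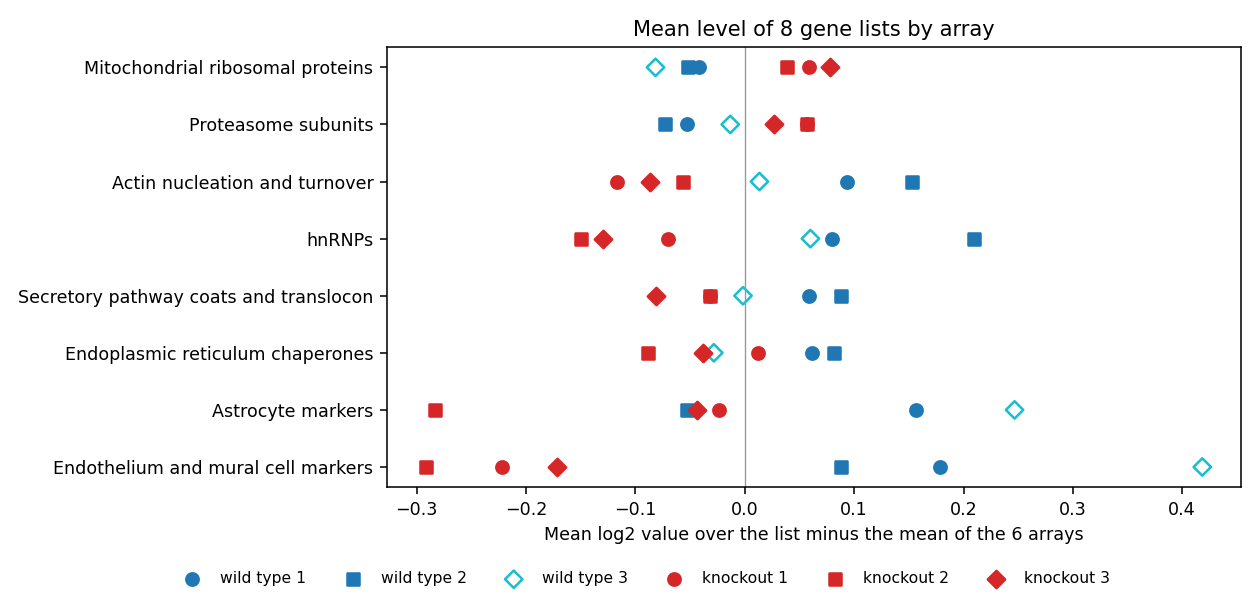
Each row is a gene list and each point an array, as the mean log2 value over the list's genes minus the mean of the 6 arrays, with the open mark for wild type 3. Mitochondrial ribosomal and proteasome genes read higher in knockout arrays and actin, hnRNP and secretory genes lower, with no overlap for these 5 or for endothelium; the endoplasmic reticulum and astrocyte rows overlap.

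RNA binding proteins held the list with the largest share on one side. Of 20 hnRNPs, which package nascent RNA and steer splicing and export, 11 were lower (55.0%) and 1 higher, with a median of -0.25. Hnrnpk read 13.97, 14.02 and 14 in wild type and 13.74, 13.74 and 13.70 in knockout, and 2 of its other probe sets gave -0.17 and -0.32. Hnrnpdl read 11.92, 12.06 and 11.93 against 11.53, 11.41 and 11.53, and Hnrnpf 12.08, 12.34 and 12.18 against 11.78, 11.58 and 11.48. In all 3 the groups did not overlap and wild type 3 lay between the other wild type arrays. The 7 probe sets of Hnrnpdl ranged from -0.54 to 0.28. The list mean was 11.72, 11.85 and 11.70 against 11.57, 11.49 and 11.51, and 9 passed as lower and 1 as higher without wild type 3. The number lower ranged from 8 to 12 over the alternatives. The median lay between -0.28 and -0.14, the latter with the mean of all probe sets of a gene.

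SR proteins and splicing factors were 10 higher and 11 lower of 52, near the shares of bright genes. DEAD and DEAH box helicases, at a median level of 10.56, were 13 higher (25.5%) and 6 lower of 51, and without wild type 3, 7 passed as higher and 4 as lower: Ddx24 read 13.54, 13.49 and 13.42 in wild type and 13.71, 13.75 and 13.77 in knockout, while Dhx15, which takes apart the spliceosome, differed by -0.38 (SE 0.067). Without wild type 1, 7 helicases were higher. Zinc finger proteins of the Zfp series were 32 higher (9.67%) and 42 lower (12.7%) of 331 at a median level of 8.72, and chromatin modifying enzymes 11 and 14 of 93 at 10.06.

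In signalling, Ptpa, which activates the phosphatase PP2A, read 12.93, 12.89 and 12.81 in wild type and 13.25, 13.33 and 13.37 in knockout, while Ppp2r2b, a PP2A targeting subunit, read 12.20, 12.32 and 12.08 against 11.76, 11.61 and 11.48. Phosphatases of the Ppp families were 12 higher and 10 lower of 81 at a median level of 10.57. Map3k12, the dual leucine zipper kinase that reports axon injury, read 13.65, 13.63 and 13.64 against 13.18, 13.43 and 13.25 (difference -0.36, SE 0.068). Ret, the receptor for GDNF family factors, read 13.80, 13.81 and 13.68 against 13.43, 13.42 and 13.41, but 0.043 by its dimmer probe set. Immediate early genes, which follow activity, were 8 lower (22.2%) and 0 higher of 36 at a median level of 7.60, a number that was 4 without wild type 1. Of 46 apoptosis genes 5 were higher and 10 lower at a median level of 10.33, and 3 lower without wild type 1.

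Lists of excitability genes were mostly short and dimmer. Potassium channel genes were 7 higher (8.75%) and 3 lower (3.75%) of 80 at a median level of 8.43. Sodium channels were 1 higher and 3 lower (25%) of 12 at 8.75, calcium channels 4 (17.4%) and 2 of 23 at 9.76, and ionotropic glutamate receptors 4 (25%) and 1 of 16 at 10.61. GABA-A and glycine receptors were 0 higher and 4 lower (20.0%) of 20 at 6.74. Without wild type 3, 3 glutamate receptors passed as higher and 2 as lower, and 3 sodium channels as lower. Glrb, the beta subunit that anchors glycine receptors, read 13.26, 13.34 and 13.25 in wild type and 13.05, 13.04 and 12.99 in knockout. Gria3, an AMPA receptor subunit, read 13.37, 13.42 and 13.33 against 13.04, 13.15 and 12.86, and Nalcn, the sodium leak channel, 12.32, 12.39 and 12.15 against 12.02, 11.86 and 11.87. Micu3, a regulator of mitochondrial calcium uptake in neurons, read 13.17, 13.47 and 13.07 against 12.65, 12.54 and 12.61 (difference -0.63, SE 0.10). Synaptic vesicle and release genes were 1 higher and 4 lower of 55, with Sv2b at -0.38 (SE 0.074). The genes named in this paragraph all read lower. The lists of potassium channels, calcium channels and glutamate receptors nevertheless had more members higher than lower, with differences up to 0.97, 0.58 and 1.26.

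Markers of astrocytes, oligodendrocytes and endothelium had members on the lower side and none on the higher at an unadjusted p under 0.05. At that p, 6, 4 and 4 of them were lower with all arrays. Without wild type 3 and at the same unadjusted p, 5, 4 and 3 were lower and 2, 0 and 0 higher. At the stricter adjusted p, 3, 3 and 1 then passed as lower. In bulk samples of this kind, fewer cells of a type and less RNA per cell cannot be told apart. Motoneuron markers were 0 higher and 3 lower of 23, with list means of 11.86, 11.87 and 12.01 in wild type and 11.80, 12.03 and 11.75 in knockout, which overlap. Isl1 differed by -0.51 by its brightest probe set and by 0.45 by the other. Astrocyte markers were 6 lower (35.3%) and 0 higher of 17 at a median level of 10.84, with means of 10.73 to 11.03 in wild type and 10.50 to 10.76 in knockout. Aqp4, the water channel of astrocyte end feet, read 11.42, 11.26 and 11.32 against 10.86, 10.73 and 10.89, but Gfap, their intermediate filament, overlapped at 10.67 to 11.33 and 10.23 to 11.12. Endothelium and mural markers were 4 lower (21.1%) and 0 higher of 19 at a median level of 6.87, with means of 7.29 to 7.62 against 6.91 to 7.03, and wild type 3 was highest; Pecam1, a defining gene of endothelium, was at 4.33 to 5.25 throughout. Oligodendrocyte markers were 4 lower and 0 higher of 17 at a median level of 10.14, with means of 10.22 to 10.59 against 9.81 to 10.19. The lowest of these means was that of knockout 2. The oligodendrocyte median difference of -0.35 was -0.0045 with the Xist level as a term and -0.55 with the Gapdh 3′ to 5′ difference as a term. Microglia markers were 0 and 0 of 17. Blood and skeletal muscle markers were also 0 and 0, of 5 and 10, with medians of 0.15 and 0.064, and Schwann cell markers 1 higher and 2 lower of 11. The part of these cells in the other results was not tested.

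Interneuron markers varied between arrays, with overlapping genotypes. Their means were 9.61, 9.44 and 8.82 in wild type and 9.52, 8.79 and 9.60 in knockout. Wild type 3 and knockout 2 were thus the low arrays. Gad1, which makes GABA, read 8.89 and 8.56 in these 2 and 9.93 to 10.17 in the other 4. Slc5a7, the choline transporter, was high in the same arrays, at 10.38 and 10.50 against 9.06 to 9.81.

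Of 80 measured genes next to Gdap1 on chromosome 1, 40 on each side, 20 were lower (25%) and 7 higher (8.75%), with a median of -0.075, at a median level of 7.54, and 15 passed as lower and 0 as higher without wild type 3. Rrs1, a factor of ribosome assembly, read 12.19, 12.31 and 12.67 in wild type and 11.69, 11.60 and 11.62 in knockout. Vcpip1, a deubiquitinase that works with p97, read 13.30, 13.24 and 13.19 against 12.85, 12.82 and 12.76. Neither gene's groups overlapped. Without wild type 1, 12 were lower. Ube2w, described above, is also on this list.

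Wild type 3 was then placed between the groups gene by gene. Its position was taken as 0 at the mean of wild type 1 and 2 and 1 at the mean of the knockout arrays, for probe sets chosen without it. Such a choice favours probe sets in which wild type 1 and 2 happen to lie far from knockout. The choice alone can therefore give a median above 0. Over the 2107 that passed as higher the median position was 0.74 (quartiles 0.49 and 1), and over the 2539 lower 0.67 (quartiles 0.42 and 0.91). Of the higher ones 1028 (48.8%) lay past 0.75 and 237 (11.2%) under 0.25; of the lower ones 1032 (40.6%) and 355 (14.0%). Each of the other arrays was left out in the same way, with probe sets chosen at an unadjusted p under 0.001. Their medians lay between -0.16 and 0.40 over 20 to 153 probe sets a side, against 0.79 and 0.67 for wild type 3 over 882 and 1380. With wild type 3 put back, 2959 of the 4646 (63.7%) had groups that did not overlap; they were chosen on 5 of the same arrays.

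**Figure D4:**
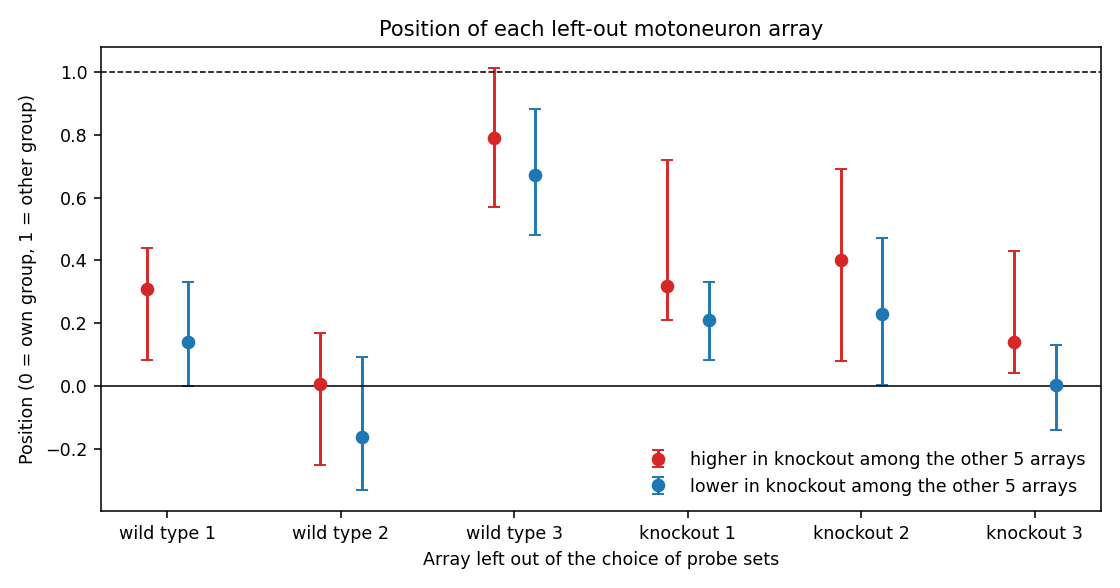
Points are median positions and bars quartiles, on a scale where 0 is the mean of an array's own group and 1 that of the other group, for probe sets chosen at an unadjusted p under 0.001 from the other 5 arrays. Wild type 3 sits at 0.79 and 0.67 and every other array at 0.40 or below.

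The genes with the smallest p without wild type 3 were examined with that array put back. Of the 20 higher ones, 15 had wild type 3 past 0.75 of the way to knockout, and 11 had groups that did not overlap with all 6 arrays. Kpna4, an importin that carries proteins into the nucleus, read 8.33 and 8.49 in wild type 1 and 2, 10.50 in wild type 3 and 10.43, 10.55 and 10.40 in knockout (5-array difference 2.05, adjusted p = 0.00453 by limma). A brighter probe set of Kpna4 gave -0.27 over 6 arrays. Srrm1, a splicing coactivator, read 7.78 and 7.86, then 10.09, then 9.72, 9.86 and 9.85, and again a brighter probe set gave -0.29. In both, wild type 3 was inside or above the knockout values.

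Eef1a2, the translation elongation factor of neurons and muscle, read 12.55 and 12.35 in wild type 1 and 2, 13.33 in wild type 3 and 13.55, 13.66 and 13.59 in knockout. Nell2, a secreted glycoprotein of neurons, read 12.10 and 11.99, then 13.34, then 13.23, 13.49 and 13.17. Hspa4, an HSP110 chaperone, read 11.89 and 11.76, then 12.89, then 12.78, 12.85 and 12.88, and its brightest probe set gave -0.0008. Pcsk1n, an inhibitor of prohormone convertase, read 12.73 and 12.51, then 13.29, then 13.45, 13.63 and 13.54. Wild type 3 was separated from the knockout arrays in Eef1a2 and Pcsk1n only, among these 4.

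On the lower side of that set 6 of 20 had wild type 3 past 0.75, and 17 did not overlap with all arrays. Spock3, a proteoglycan of the extracellular matrix, read 13.04, 13.08 and 12.52 in wild type and 11.80, 11.64 and 11.52 in knockout (difference -1.22, SE 0.16). Klf6, a transcription factor induced in regenerating neurons, read 12.05, 11.96 and 11.28 against 10.67, 10.45 and 10.61, though 2 of its dimmer probe sets gave 0.57, and Rab11a, of recycling endosomes, 12.81, 12.95 and 12 against 11.77, 11.66 and 11.55. In these 3, wild type 3 was between the groups. Pcbp2, an RNA binding protein, read 13.13 and 13.31, then 12.21, then 12.26, 12.16 and 12.26, and Rab3c, of synaptic vesicles, 12.27 and 12.19, then 10.96, then 11.27, 11.17 and 11.21. There wild type 3 was within or past the knockout values.

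**Figure D5:**
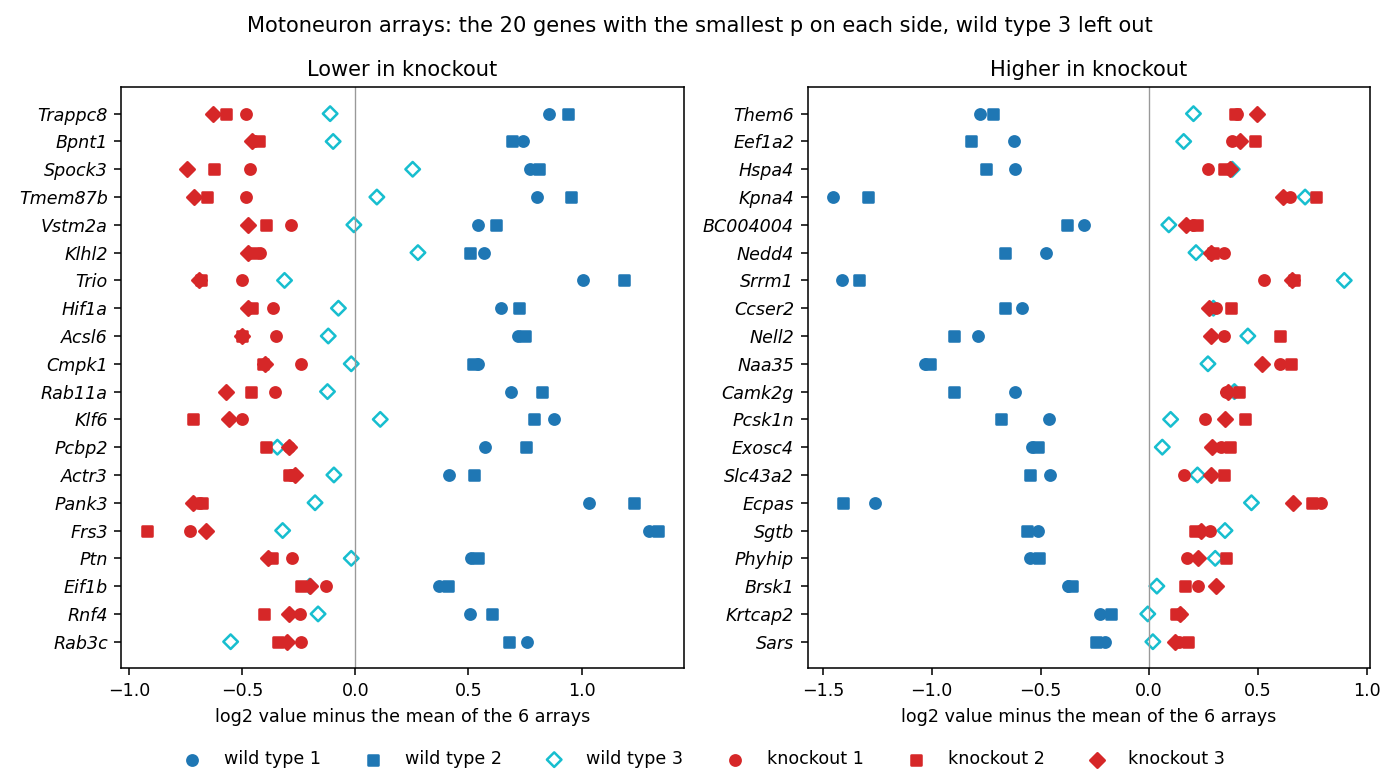
Rows and marks are as in the plot of leading genes, for the 20 genes with the smallest p on each side when wild type 3 is left out. The open mark of wild type 3 lies past 0.75 of the way to the knockout arrays in 15 of the rows on the right and 6 on the left.

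The same position was taken over list members. The choice of members can itself move wild type 3 off 0, so the position does not measure how far a list rested on that array. Over the members that passed without wild type 3, the median position was 0.42 for hnRNPs and 0.50 for mitochondrial ribosomal proteins. It was 0.67 for actin genes and 0.68 for the secretory list, against 0.67 over all genes. It was 0.83 for Rab GTPases and 0.86 for heat shock proteins. These medians pooled both directions over 10 to 25 members a list. Some lists not given here lay further out. Examples are DEAD and DEAH box helicases at 0.30 over 11 members and synaptic vesicle genes at 1.16 over 7. Members chosen with 6 arrays had lower positions by construction: the 20 leading genes on each side had medians of 0.10 and 0.13.

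Probe sets of the same gene did not always lie on the same side. Of 1091 genes with at least 2 probe sets at an unadjusted p under 0.05, 362 had all of them higher, 422 all lower and 307 (28.1%) some on each side. Without wild type 3 it was 198 of 638 genes (31.0%) by probe sets that passed. Dnajc3, a cochaperone of the endoplasmic reticulum, read 11.51, 11.91 and 11.32 in wild type and 11.09, 10.50 and 10.88 in knockout by one probe set. By the other it read 10.78, 10.75 and 11.14 against 11.46, 11.41 and 11.35. Pabpn1, which controls poly(A) tail length, differed by -0.63 and by 0.35. These were chosen for the disagreement after their values were seen.

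The same comparison in sciatic nerve was used only to ask whether the effect differed. The tissues appear to have been normalized separately, which limits every fit over all 12 arrays. No probe set passed for the motoneuron minus nerve difference over 12 arrays (0.0%, smallest adjusted p = 0.173 by limma), and 3398 had an unadjusted p under 0.05 (7.54%); without wild type 3 of motoneurons 238 passed.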

How the data were processed

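The series matrix the authors deposited holds log2 values per probe set, made from 3′ expression arrays with Affymetrix Expression Console 1.1 per the submitters' processing notes. The summarization and normalization method is not given in the sources used here. From 20 ng of total RNA, cDNA was amplified and labelled, per the labels' protocols. Of 45101 probe sets 64 controls were left out; of the 45037 tested, 34945 had 1 gene symbol in the platform annotation, 932 several and 9160 none, and 34741 were updated through RefSeq (GRCm38.p6). A linear model per probe set (limma 3.58.1, R 4.3.3) compared the genotypes, with variances moderated toward a trend on the mean, two-sided p and Benjamini-Hochberg adjustment over all probe sets, tested on simulated data; 3 arrays against 3 limit the precision, and an exact permutation test cannot go below 0.1. Named are all Gdap1 and Gdap1l1 probe sets, the 20 genes a side with the smallest p among probe sets above the median level, the 10 a side with the largest difference among those without overlap at an unadjusted p under 0.01, in each list as many as 3 members with the smallest p under 0.05, the 20 a side without wild type 3, and 4 markers per cell type as levels. The arrays and lists were chosen with earlier results of these data known. Alternatives covered scaling, filtering, the variance prior, array weights, covariates, the replicate number as a block and each array left out.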

Additional observations from a re-analysis of the deposited data

How the results depend on the processing

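With 6 arrays, 0 probe sets passed after quantile normalization, after centring, without the variance trend, and with the Gapdh 3′ to 5′ difference, the Xist level or the replicate number as a term (replicate block, 0 passed and 6773 at an unadjusted p under 0.05); 61 passed among bright probe sets, 828 with 12 arrays in 1 fit and 2929 with array weights. With 1 array left out the count that passed was 0 to 4646, that at an unadjusted p under 0.05 was 5057 to 10986 and that without overlap 13246 to 18645. Groups of 2 and 3 arrays separate more often by order alone, so the last range cannot be set against the 10118 of 6 arrays. Same-numbered arrays did not deviate together (correlations 0.0904, -0.0643 and -0.0789), so the numbers were not taken to pair them. Without wild type 3 and 1 further array, 0 to 5055 passed, and 0 passed without the trend, against 4358 to 6402 under the other settings, which were chosen after seeing the data. The interaction count was 0 to 238 with 1 array left out. The medians of 38 of the 68 lists changed sign under some alternative, as for ubiquitin-specific proteases (-0.071 to 0.051) and apoptosis (-0.076 to 0.016), both with the mean of all probe sets of a gene. Of 204 probe sets named by the rule, most of them chosen for a small p, 2 of Gdap1 changed sign under 15 alternatives: the brightest (-0.05 to 0.015 with 1 array left out) to 0.0022 after quantile normalization, 0.0034 with array weights, 0.028 with the Xist level and 0.015 without knockout 2, the dimmest (-0.28 to 0.05) to 0.13 and 0.05 in the last 2 settings. The median position of wild type 3 over both directions was 0.70, and 0.71 at an adjusted p under 0.01. The cause of these changes was not tested. Signal near background limits what the dim probe sets show.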

Other observations

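Probe sets were also counted by the class that their names give. Among 36082 with the plain suffix _at, 7.99% were higher and 7.35% lower at an unadjusted p under 0.05, and among 4426 with the suffix _a_at, 14.0% and 9.90%. Probe sets of the classes _s_at and _x_at leaned the other way, with 11.6% higher and 14.5% lower of 2088, and 8.44% higher and 13.1% lower of 2441. The median levels of the classes were 5.98, 9.09, 9.52 and 7.88 in this order, so the classes differ in level as well.

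Array weights estimated from the agreement of each array with its group were 1.83, 0.936 and 0.440 for wild type 1 to 3 and 1.54, 0.639 and 1.35 for knockout 1 to 3. The 2 lowest belonged to wild type 3 and knockout 2, the arrays in which the interneuron markers were also low.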
